A study of Mus musculus with 16 samples.

Results

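A set of 10 genes of the rapid stress response were followed in airway epithelium of mice: the immediate early genes Fos, Fosb, Jun, Junb, Egr1, Atf3 and Ier3, and the heat shock genes Hspa1a, Hspa1b and Hspb1. They were taken as a named list, and a probe belonged to a gene when its RefSeq accession mapped to that symbol. All 10 were on the array and all 10 passed the filter on dim probes, out of 18566 genes and unnamed transcripts tested. Immediate early genes are switched on within minutes of a stimulus, without new protein synthesis, by kinase signals that reach factors already bound to their promoters. Heat shock genes are switched on when unfolded protein releases heat shock factor 1, which then binds repeated GAA and TTC blocks in their promoters. In tissue, both sets are known to respond to the taking and handling of the sample as well as to events in the living animal.

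The epithelium came from FvB mice, either wild type (wt) or with beta6, the integrin subunit encoded by Itgb6, knocked out (ko). The 4 groups of 4 arrays are ko_OVA, wt_OVA, ko_saline and wt_saline. Mice were 6 to 8 weeks old at sensitization. The ko_OVA and wt_OVA mice received 20 ug of ovalbumin (OVA) into the peritoneum on days 1, 4 and 7 and then 10 ug into the nose weekly for 9 weeks, and the ko_saline and wt_saline mice received saline on the same schedule. Epithelium was taken 24 h after the last challenge. The labels used here give no time from death to lysis, and do not say whether an array holds RNA of 1 animal or of a pool. The p-values therefore measure the spread between these samples, whatever its source.

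Each array measured Cy3-labelled RNA of 1 sample. Values are log2 signals relative to the 75th percentile of the same array, so 0 means a signal equal to that percentile and 1 means double. That percentile lay between 78.0 and 793 intensity units, and between 43.3% and 74.5% of probes were well above background, with wt_OVA 1 and wt_OVA 2 (arrays are named by group and replicate number) as the brightest by that share. Epithelial markers were measured for 14 of 15 genes, and 13 of these, among them Epcam, Cdh1, Krt8, Foxj1 and Scgb1a1, left the floor of the scale on all 16 arrays, whereas Cldn18 was held at it on 11 arrays. The arrays came from 4 slides, and no slide held a single group. Itgb6 itself read -0.98, -1.71, -0.96 and -1.02 in ko_OVA, against -0.56, -0.57, -0.59 and -0.64 in wt_OVA, and -1.02, -0.78, -0.73 and -0.92 in ko_saline, against -0.88, -0.93, -0.81 and -0.39 in wt_saline. The part of the gene that is disrupted is not placed on these probes, so they check the genotype labels only if they lie inside it.

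The promoters are shown because the heat shock genes of the list carry the sequence that heat shock factor is known to bind, and because Hspa1a and Hspa1b, whose values move together below, are near copies there. Each line gives the 250 bases before the annotated start, 5′ to 3′ on the strand of the gene, from RefSeq on GRCm38.p6. The places are chr17:34972157-34972406 (minus strand) for Hspa1a, chr17:34959239-34959488 (minus strand) for Hspa1b, chr5:135887669-135887918 (plus strand) for Hspb1 and chr12:85473640-85473889 (plus strand) for Fos. Capitals mark GAANNTTC in the heat shock genes and TATAAA in Fos.
Hspa1a: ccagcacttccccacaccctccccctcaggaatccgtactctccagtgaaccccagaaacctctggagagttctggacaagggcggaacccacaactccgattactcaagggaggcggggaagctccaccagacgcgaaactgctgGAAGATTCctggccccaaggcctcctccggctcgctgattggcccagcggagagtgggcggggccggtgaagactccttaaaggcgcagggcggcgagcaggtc
Hspa1b: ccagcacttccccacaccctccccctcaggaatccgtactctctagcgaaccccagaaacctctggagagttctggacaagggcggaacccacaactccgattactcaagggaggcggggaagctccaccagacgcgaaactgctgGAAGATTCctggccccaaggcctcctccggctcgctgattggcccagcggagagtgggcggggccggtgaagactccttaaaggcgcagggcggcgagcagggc
Hspb1: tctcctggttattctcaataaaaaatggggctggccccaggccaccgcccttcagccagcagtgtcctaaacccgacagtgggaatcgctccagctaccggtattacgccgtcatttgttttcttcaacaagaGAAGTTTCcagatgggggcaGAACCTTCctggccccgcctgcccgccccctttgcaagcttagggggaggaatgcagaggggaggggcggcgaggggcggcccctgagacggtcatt
Fos: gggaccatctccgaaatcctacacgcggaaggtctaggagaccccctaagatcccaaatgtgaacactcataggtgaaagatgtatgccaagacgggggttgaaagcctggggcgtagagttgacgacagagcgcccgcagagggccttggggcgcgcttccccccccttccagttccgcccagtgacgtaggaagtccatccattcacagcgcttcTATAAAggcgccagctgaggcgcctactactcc
The Hspa1a and Hspa1b stretches differ at 3 of 250 bases. GAANNTTC, a palindrome that reads the same on both strands, starts 104 bases before the start of Hspa1a and of Hspa1b, and 117 and 97 bases before that of Hspb1. It was also found 128 bases before the start of Jun, so 4 of the 9 member promoters read held it. Of 32536 mouse promoters of the same length 6.72% did. This share is a description and not a test. Heat shock genes are known to carry the element, and the near copies Hspa1a and Hspa1b were counted separately. Among the immediate early genes read, only Jun held it. The mirrored form TTCNNGAA was in 0 of 9 member promoters and 7.19% of all. TATAAA, searched on the gene strand, was in the Fos window and in 7.55% of all. The cyclic AMP element TGACGTCA, the AP-1 site TGANTCA and the serum response element were in 0 of the 9 windows. Of all promoters 1.56%, 6.73% and 1.48% held them. Only exact matches within the 250 bases were sought, so variant or more distant elements of the members would be missed. No sequence is shown for Egr1.

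Fos encodes the partner of Jun in the AP-1 transcription factor and is the usual first marker of acute stimulation. Its signal was -0.81, 0.07, -0.49 and -0.62 in ko_OVA, -0.71, -0.84, -0.24 and -0.32 in wt_OVA, -0.62, -1.04, -0.24 and -1.35 in ko_saline, and 1.46, -1.44, -0.91 and -0.44 in wt_saline. The array wt_saline 1 was the highest of 16 and wt_saline 2 the lowest, so the wt_saline group alone spans the 7.47-fold range of the gene. Fos was spotted 9 or 10 times per array, and these spots varied by a median CV of 3.47%, an error within arrays that leaves out labelling, hybridization and sampling.

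Egr1, a zinc finger factor induced through the serum response pathway, had the widest range of the list, 58.8-fold. It read -1.23, 0.37, -0.21 and 1.26 in ko_OVA, -0.54, -1.65, -0.65 and -0.72 in wt_OVA, 2.64, -1.14, 1.88 and -0.49 in ko_saline, and 4.23, -0.54, -0.56 and 0.15 in wt_saline. Single arrays stood high in both saline groups, namely wt_saline 1, ko_saline 1 and ko_saline 3, while all 4 wt_OVA arrays lay below -0.50. The groups overlapped in every pairing.

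Atf3, a factor of the AP-1 family that is induced by many stresses, read -1.08, -0.47, -0.75 and 0.12 in ko_OVA, 0.01, -0.95, -0.30 and -0.47 in wt_OVA, -1.13, -1.27, 0.11 and -1.24 in ko_saline, and 1.34, -1.75, -0.31 and -0.43 in wt_saline. The highest and the lowest array were again wt_saline 1 and wt_saline 2. Fosb, a close relative of Fos, was held at the floor of the scale (-3.32, the lowest signal that could be compared on every array) on 13 of 16 arrays. It left the floor on wt_saline 1, at -1.02, at least 4.92-fold above the arrays at the floor, and barely on ko_saline 3 (-3.05) and ko_OVA 4 (-3.14). The ko_OVA 4 spot was not well above background, and its scaled value comes from a processed intensity of 8.83 on the array with the lowest 75th percentile (78.0). The other 3 ko_OVA spots, at 24.7 to 28.6, were well above background and yet fell at the floor once scaled.

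Jun, the AP-1 subunit that can also pair with itself, followed another order. It read -0.77, -0.52, -0.61 and -0.53 in ko_OVA, 0.02, -0.58, 0.51 and 0.18 in wt_OVA, -0.71, -0.55, -0.47 and -1.40 in ko_saline, and -0.02, -1.66, -0.49 and -0.17 in wt_saline. Every ko_OVA array lay below 3 of the 4 wt_OVA arrays, and wt_OVA 2 lay among the ko_OVA values.

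Junb, an AP-1 subunit often set against Jun in its effects, and Ier3, a small protein induced by growth factors and NF-kappaB, varied least. Junb read 4.99, 5.48, 5.40 and 5.66 in ko_OVA, 5.36, 4.98, 4.85 and 5.28 in wt_OVA, 5.53, 5.09, 5.61 and 5.17 in ko_saline, and 6.27, 5.48, 5.40 and 5.44 in wt_saline. All 4 wt_OVA arrays were below all 4 wt_saline arrays. Ier3 read 1.41, 1.60, 1.53 and 1.67 in ko_OVA, 1.62, 1.39, 1.20 and 1.45 in wt_OVA, 1.37, 1.29, 1.40 and 1.22 in ko_saline, and 1.61, 1.39, 1.73 and 1.28 in wt_saline. All 4 ko_OVA arrays were above all 4 ko_saline arrays, with 1.41 as the lowest in ko_OVA and 1.40 as the highest in ko_saline, and the whole range of the gene was 1.45-fold.

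Hspa1a and Hspa1b encode the same inducible chaperone of the Hsp70 family from neighbouring genes. Hspa1a read 4.11, 4.80, 4.34 and 5.26 in ko_OVA, 3.17, 4.32 and 6.43 in wt_OVA (the spot of wt_OVA 2 was left out as an outlier), 3.93, 3.74, 6.18 and 4.02 in ko_saline, and 7.59, 3.44, 6.45 and 7.04 in wt_saline. Hspa1b read 2.19, 2.86, 1.99 and 3.53 in ko_OVA, 1.40, 2.62, 2.70 and 4.96 in wt_OVA, 2.18, 1.61, 4.39 and 1.65 in ko_saline, and 6.36, 1.56, 5.33 and 4.95 in wt_saline. The same 5 arrays led both genes: wt_saline 1, 3 and 4, wt_OVA 4 and ko_saline 3. For Hspa1a these 5 lay at 6.18 or above and the other 10 measured arrays at 5.26 or below, a gap of 0.92.

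The ranges were 21.4-fold for Hspa1a and 31.1-fold for Hspa1b, and 2 probes of each gene followed each other over the arrays (Pearson r = 0.995 over 15 arrays and 0.970 over 16). The 2 genes followed each other with r = 0.98. Their sequences are close enough that probes may read transcripts of both, so these probes may not tell the pair apart. Hspb1, the small heat shock protein Hsp27, did not share the pattern: it read 5.52, 6.35, 6.64 and 4.53 in ko_OVA, 4.15, 4.91, 4.91 and 5.43 in wt_OVA, 5.92, 4.73, 6.67 and 6.35 in ko_saline, and 5.81, 5.42, 5.09 and 5.60 in wt_saline. Its correlation with Hspa1a and Hspa1b was 0.21 and 0.12, and the highest arrays were ko_saline 3 and ko_OVA 3.

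**Figure D1:**
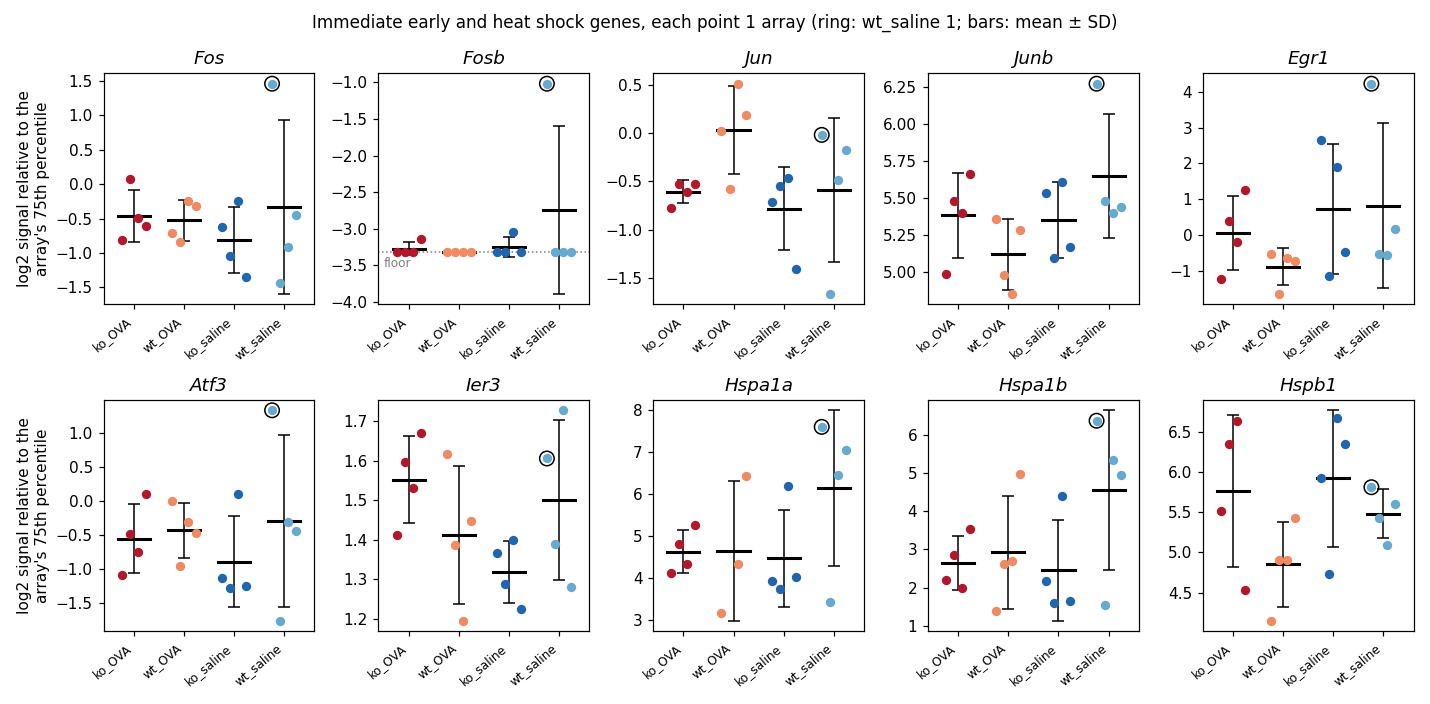
Log2 signal of each gene relative to the 75th percentile of the array, by group, with 1 point per array, bars for mean ± SD and a separate vertical scale in each panel; the ring marks wt_saline 1 and the dotted line in the Fosb panel is the floor. The ringed array is the highest of all arrays for Fos, Fosb, Junb, Egr1, Atf3, Hspa1a and Hspa1b, and the groups overlap in most panels.

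The arrays of 1 group differed more in these genes than in most others. The SD within groups, pooled over the 4 groups, had a median of 0.71 over the 10 members, against 0.24 over all features tested. Egr1 had an SD of 1.58, Hspa1b 1.48 and Hspa1a 1.37, each above at least 99.1% of all features. Atf3 (0.78), Fos (0.72) and Hspb1 (0.70) lay above at least 95.1% of features, Jun (0.49) above 88.3% and Junb (0.31) above 68.2%. Ier3 (0.15) lay above 13.9% of features, and the SD of Fosb (0.58) comes from 1 array. Other immediate early genes, a list of 69 of which 61 were measured, had a median SD of 0.38, and 49 of them were above the median of all features. Of 42 other measured heat shock and chaperone genes 29 were above it, with a median of 0.35. The 24 measured regulators upstream of both sets, such as kinases, serum response factor and heat shock factors, had a median of 0.21, and 9 were above it. A wide spread was not particular to stress genes: some lists of markers of other cells had medians of 2.62 (red blood cells), 2.24 (striated muscle), 0.58 (fibroblasts and smooth muscle), 0.55 (leukocytes), 0.47 (endothelium) and 0.44 (mast cells), all above those of the other immediate early and heat shock genes. Markers of alveolar epithelium (0.34), epithelial markers (0.30) and a list of hypoxia and metal response genes (0.29) lay below both.

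**Figure D2:**
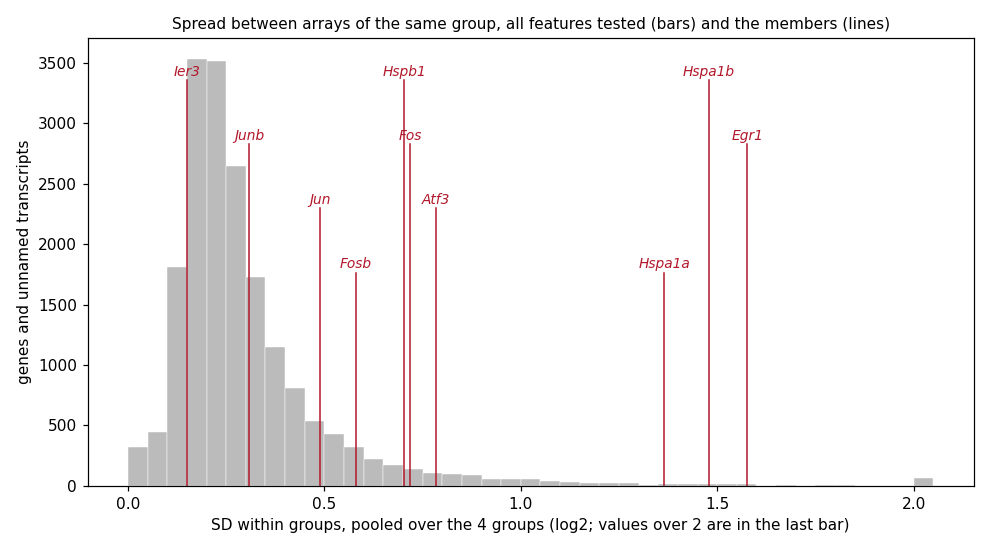
SD within groups, pooled over the 4 groups, on the log2 scale (horizontal) against the number of features in each bar (vertical) for all 18566 features, with red lines at the members, whose heights only keep the names apart. Egr1, Hspa1a and Hspa1b lie far into the tail, and Ier3 lies at the left of the main body of features.

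The array wt_saline 1 stood apart in these genes. It was the highest of the 16 arrays for 7 of 10 members, whereas it was the highest for 6.09% of the 13653 features that never reached the floor. It was also the highest for 24 of the 52 other immediate early genes that never reached the floor, and for 7 of 37 other heat shock genes, where ko_OVA 3 was the highest for 9 and wt_OVA 4 for 6. Of all features that never reached the floor, ko_OVA 3 was the highest for 7.6% and wt_OVA 4 for 3.37%. For the other heat shock genes wt_saline 1 was thus not the array most often highest, and it was the lowest for 0 of the 37. All 10 members were above their own mean on it. Next came ko_saline 3, with 9 of 10 above their mean, while ko_saline 2 and wt_OVA 2 had 0 above it, and wt_saline 2, the lowest array for 4 members, had 1. Setting wt_saline 1 apart, here and below, was chosen after its values were seen. Where it is the highest array of a gene, leaving it out lowers the wt_saline mean by construction. Without wt_saline 1 the SD was 1.14 for Egr1, 0.59 for Atf3, 0.41 for Fos, 0.24 for Junb and 0.08 for Fosb. It was 1.33 for Hspa1a and 1.41 for Hspa1b, so the spread of the Hsp70 pair did not rest on that array.

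**Figure D3:**
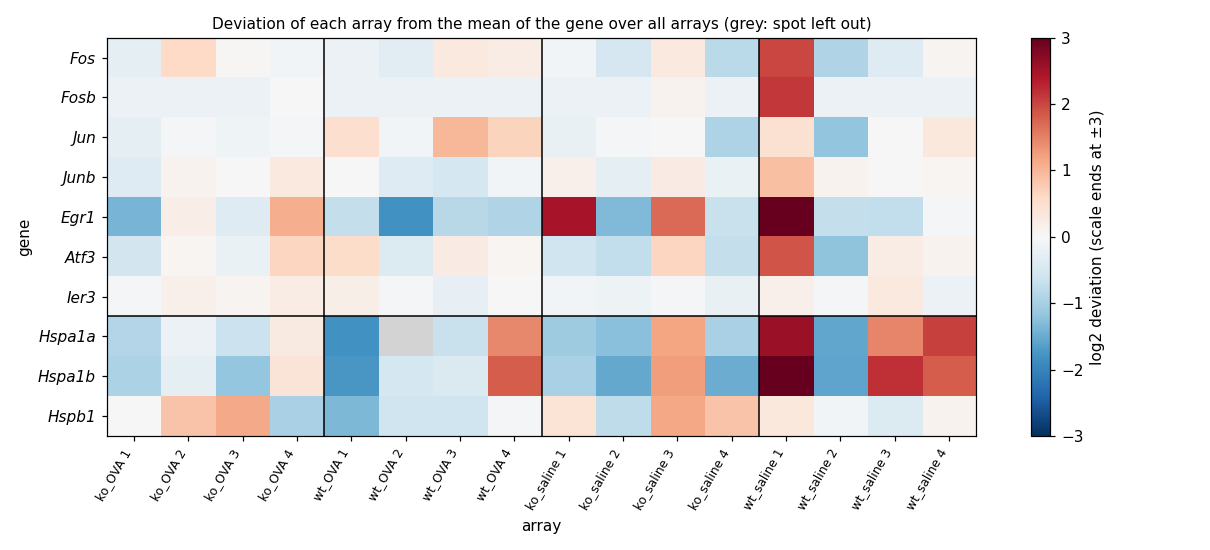
Deviation of each array (columns, by group) from the mean of the gene over all arrays (rows), on a log2 colour scale that ends at ±3, with the left-out spot in grey. The column of wt_saline 1 is red in all 10 rows, Hspa1a and Hspa1b are red on 5 arrays, and the row of Ier3 is pale throughout.

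Markers of other cells were read on the same arrays, as sums of linear signal in units of the 75th percentile. Of 15 leukocyte genes 13 were measured, and 11 of these left the floor on at least 14 arrays, Ptprc, Tyrobp and Laptm5 on all 16. Their sum was 19.4 to 66.3 in ko_OVA, 19.1 to 34.1 in wt_OVA, 15.9 to 36.9 in ko_saline and 29.8 to 49.3 in wt_saline. Within their groups wt_saline 1 (49.3) and ko_saline 3 (36.9) had the highest sums, but ko_OVA 2 and ko_OVA 4 had higher ones (66.3 and 64.1). Over the 16 arrays the mean deviation of the 7 immediate early genes followed the mean log2 level of the leukocyte list with Pearson r = 0.520 and Spearman rho = 0.629, and with r = 0.405 without the 2 arrays farthest from the median of that level. For the 3 heat shock genes r was 0.210. Over 9 lists (markers of cell types and a hypoxia and metal list) r ran from -0.355 (alveolar epithelium) to 0.520 (leukocytes) with the immediate early genes, and from -0.426 (mast cells) to 0.312 (hypoxia and metal) with the heat shock genes. For the immediate early genes the hypoxia and metal list had r = 0.371 and rho = 0.591. Without the 2 farthest arrays the ranges were -0.482 (alveolar epithelium) to 0.456 (striated muscle) and -0.564 (mast cells) to 0.574 (striated muscle). The 16 striated muscle genes summed to 93.3 on wt_saline 1, the highest of its group (15.9 to 93.3), and 4 red blood cell genes to 3027, also the highest of its group (19.9 to 3027). Some arrays of other groups had higher sums. Striated muscle reached 557 on ko_saline 2 and 391 on wt_OVA 1, and red blood cells 5711 on ko_OVA 4 and 4456 on wt_OVA 4. The 75th percentile of the array followed the immediate early genes with r = -0.168 and the heat shock genes with r = 0.0204. The part of these other cells in the values of the members was not tested. In such samples fewer cells of a type and less RNA per cell cannot be told apart.

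The immediate early genes moved together across arrays, some pairs largely through wt_saline 1 and others also without it. As a description over 16 arrays that share scaling and groups, the 21 pairs of immediate early genes had a median Pearson r of 0.63 (0.01 for Jun with Junb to 0.87 for Junb with Egr1). Over the 15 arrays without wt_saline 1 the median was 0.31 (-0.22 for Jun with Junb to 0.75 for Junb with Egr1). The pairs differed in this. Fos with Jun went from 0.60 to 0.71, Jun with Atf3 from 0.66 to 0.70 and Fos with Atf3 from 0.84 to 0.67. By contrast, Fos with Junb went from 0.64 to 0.17 and Fos with Egr1 from 0.71 to 0.37. Pairs of an immediate early gene with Hspa1a or Hspa1b had a median of 0.33 without that array. The 5 genes most like Fos over the 16 arrays were Arc (r = 0.892), an activity-regulated immediate early gene of neurons, Siah2 (0.860), a ubiquitin ligase, Yod1 (0.856), a deubiquitinase, Sfn (0.845), the epithelial 14-3-3 protein, and Dnajb4 (0.838), an Hsp40 co-chaperone. Without the 2 arrays farthest from the median of Fos these values were 0.738, 0.570, 0.571, 0.683 and 0.670. The 5 most like Hspa1a over 15 arrays were Dedd2 (0.928), Uspl1 (0.905), Naa16 (0.895), Coq10b (0.872) and Siah2 (0.864), and without the 2 arrays farthest from its median 0.867, 0.907, 0.828, 0.768 and 0.760. Of the other immediate early genes 24 of 61 (39.3%) had r of at least 0.5 with Fos, and 7 of 42 other heat shock genes (16.7%), against 3.81% of all features that never reached the floor. With Hspa1a these shares were 18 of 61 (29.5%), 10 of 42 (23.8%) and 3.98%, and the highest among the heat shock genes was Dnajb1 (0.871), the Hsp40 partner of Hsp70. All these shares include wt_saline 1 and are not given without it. That array was the highest for Fos, for Hspa1a and for 24 of the 52 other immediate early genes that never reached the floor.

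**Figure D4:**
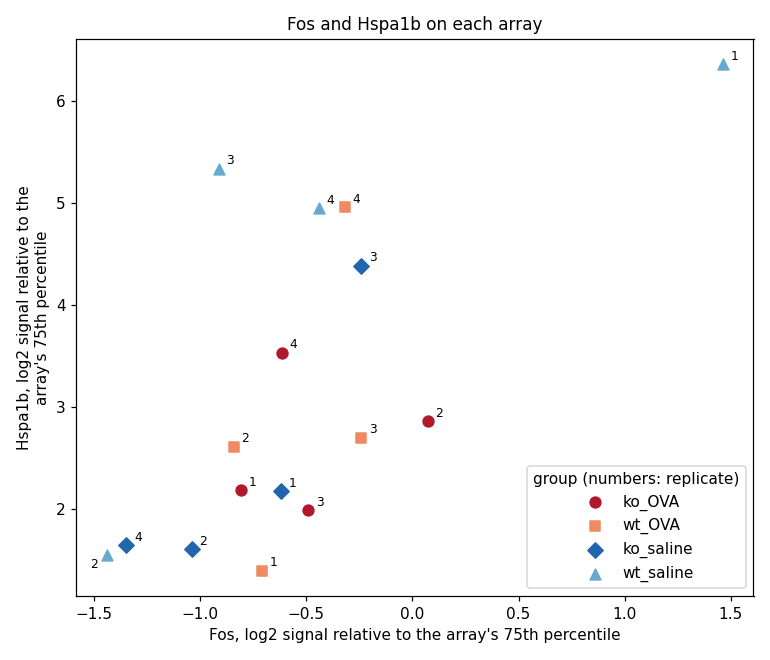
Log2 signal of Fos (horizontal) against Hspa1b (vertical), each relative to the 75th percentile of the array, with 1 point per array, shaped by group and numbered by replicate. The point of wt_saline 1 stands alone at the upper right (1.46 and 6.36), and among the rest wt_saline 3 has high Hspa1b (5.33) with low Fos (-0.91).

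The first comparison asked how repeated OVA challenge changed these genes in wt epithelium. None of the members passed limma's moderated test at an adjusted p of 0.05: 0 of 10 were called, against 2.61% of all features. At an unadjusted p under 0.05 there was 1 of 10, Junb, against 16.5% of all features. Junb averaged 5.12 ± 0.24 in wt_OVA and 5.65 ± 0.42 in wt_saline (SD, n = 4 each), a log2 change of -0.53 ± 0.21 (SE, adjusted p = 0.214 in limma). Its groups did not overlap, which held for 9.28% of all features. Without wt_saline 1 the Junb change was -0.32 (adjusted p = 0.467).

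The widest changes in wt were those of Egr1, at -1.71 ± 1.03 (95% interval -3.92 to 0.50, limma adjusted p = 0.448), Hspa1b, at -1.63 ± 0.97 (interval -3.70 to 0.44, adjusted p = 0.439) and Hspa1a, at -1.49 ± 0.96 (adjusted p = 0.491), which drops wt_OVA 2. These intervals leave room for falls of more than 10-fold as well as for small rises. In value, 9 of the 10 members were lower in wt_OVA, and Jun a higher one (0.62 ± 0.32, adjusted p = 0.364). The median change was -0.55, against 0.00 over all features. Without wt_saline 1, an array picked after its high values were seen, the change of Egr1 was -0.57 and Hspa1b stood at -1.03. Fos and Atf3 turned to 0.40 each and Fosb to 0.00. Over 32 alternative settings the change ran from -2.24 to -0.57 for Egr1, from -2.63 to -0.72 for Hspa1b and from -0.56 to 0.40 for Fos. Within slides the Hspa1b difference was -1.40 to -3.28 on the 3 slides that held both groups, and that of Egr1 -0.04 to -4.95.

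The same challenge was then followed in ko epithelium, where 0 of 10 members were called by limma, against 0.749% of all features. At an unadjusted p under 0.05 there were 0 of 10, against 9.73%. In value 7 members were higher and 3 lower, with a median of 0.17. Ier3 averaged 1.55 ± 0.11 in ko_OVA and 1.32 ± 0.08 in ko_saline (SD, n = 4 each), a change of 0.23 ± 0.11 (limma adjusted p = 0.535), and its groups did not overlap, which held for 5.23% of features. Egr1 stood at -0.67 ± 1.03, Fos at 0.35 ± 0.47 and Hspa1b at 0.19 ± 0.97.

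**Figure D5:**
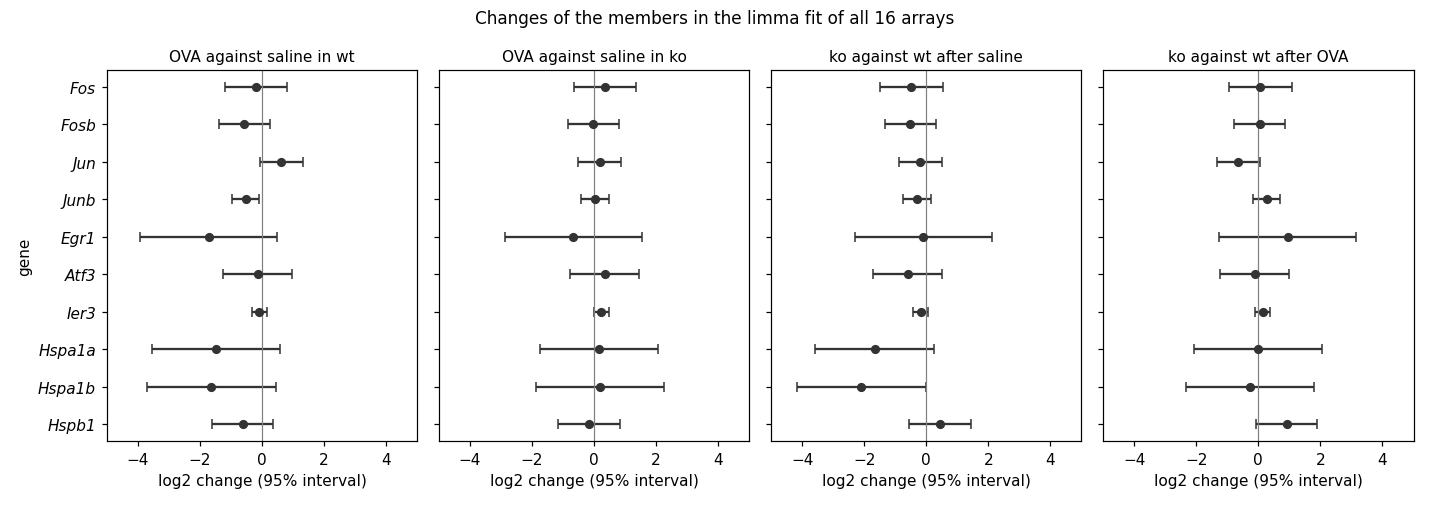
Log2 change of each gene (points) with its 95% interval (bars) in the limma fit of all 16 arrays, in 4 panels for OVA against saline in wt, OVA against saline in ko, ko against wt after saline and ko against wt after OVA. Intervals are widest for Egr1, Hspa1a and Hspa1b and narrowest for Ier3, and the intervals of Junb with OVA in wt and of Hspa1b between ko and wt after saline exclude 0 before adjustment.

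The knockout was compared with wild type under each agent, which asks how loss of beta6 alone and after challenge bears on these genes. After saline 0 of 10 members were called, against 0.162% of all features, and 1 of 10 had an unadjusted p under 0.05, against 6.3%. That was Hspa1b, which averaged 2.46 ± 1.31 in ko_saline and 4.55 ± 2.08 in wt_saline (SD, n = 4 each), a change of -2.09 ± 0.97 (limma adjusted p = 0.788). The groups overlapped, since ko_saline 3 lay among the high arrays and wt_saline 2 below all of ko_saline. The second Hspa1b probe gave -2.15 and Hspa1a -1.66 ± 0.89 (adjusted p = 0.856). Within slides the Hspa1b difference was -3.30, -4.18 and 1.44, so 1 slide of 3 went the other way. In value 9 members were lower in ko_saline, with a median of -0.39, and without wt_saline 1 Egr1 (1.04), Fos (0.12) and Fosb (0.07) had higher ones.

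After OVA 0 of 10 members were called between ko and wt, against 0.145% of features, and 0 of 10 had an unadjusted p under 0.05, against 5.08%. The nearest were Jun, with -0.61 ± 0.12 in ko_OVA and 0.03 ± 0.45 in wt_OVA (SD, n = 4 each, change -0.64 ± 0.32, limma adjusted p = 0.884), and Hspb1, with 5.76 ± 0.95 in ko_OVA and 4.85 ± 0.53 in wt_OVA (change 0.91 ± 0.46, adjusted p = 0.884). Hspb1 was higher on 3 of the 4 ko_OVA arrays than on any wt_OVA array, and ko_OVA 4 was the exception. Mast cell genes differed between the genotypes in the same arrays: 11 of 14 were measured and summed to 94.9 to 147 in ko_OVA, against 54.6 to 62.8 in wt_OVA, and to 83.5 to 104 in ko_saline, against 31.0 to 44.2 in wt_saline. The mast cell genes did not all move the same way. After OVA 7 were called higher in ko and 2 lower, with log2 changes from -4.18 to 3.27. After saline 8 were called higher and 0 lower. The part of these cells in the members' values was not tested.

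The difference between the OVA effects of the 2 genotypes, the interaction, was called for 0 of 10 members and for 0% of features, with 0 of 10 at an unadjusted p under 0.05 against 3.06% of features. Values ran from -0.45 for Jun to 1.82 for Hspa1b. Those of Fos, Fosb, Egr1 and Atf3, 0.48 to 1.04 with all arrays, were between -0.10 and -0.02 without wt_saline 1. Over both genotypes OVA was called for 0 of 10 members, against 6.46% of features, and 0 of 10 passed an unadjusted p of 0.05, against 19.7%. Over both agents the knockout was called for 0 of 10, against 0.269%, with 0 of 10 at the unadjusted level, against 7.77%. Among these pooled values the nearest to the threshold by unadjusted p was Hspb1 between ko and wt, at 0.67 ± 0.33 (limma adjusted p = 0.669). The group mean was highest in wt_saline for 7 members, in ko_OVA for Ier3, in ko_saline for Hspb1 and in wt_OVA for Jun. Without wt_saline 1 it was highest in wt_saline for 3 members (Junb, Hspa1a and Hspa1b), in ko_saline for Fosb, Egr1 and Hspb1, in ko_OVA for Fos and Ier3, and in wt_OVA for Jun and Atf3. With all arrays no pair of neighbouring groups that shared a genotype or an agent differed in the test.

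Related genes were read from lists of heat shock and immediate early genes outside the members, and the smallest p among them belonged to Hspa5. Hspa5 (BiP), the Hsp70 chaperone of the endoplasmic reticulum, read 6.94, 7.14 and 7.12 in ko_OVA and 7.63, 7.47 and 7.57 in wt_OVA (1 spot left out in each), against 6.32, 6.35, 6.57 and 6.06 in ko_saline and 6.54, 6.17, 6.64 and 6.36 in wt_saline. It rose by 1.13 ± 0.13 with OVA in wt (limma adjusted p = 0.00107) and by 0.74 ± 0.13 in ko (adjusted p = 0.0257). The call in ko was lost without ko_OVA 2, ko_OVA 4, ko_saline 1 or ko_saline 2 (adjusted p up to 0.120 with 1 array left out) and in 12 of 32 other settings in all, and that in wt with median scaling (adjusted p = 0.210). Over both genotypes Hsp90b1, the Hsp90 of the same compartment, rose by 0.81 ± 0.19 (adjusted p = 0.022, and up to 0.0571 without ko_saline 2 or ko_saline 3) and Bag1, a co-chaperone, by 0.39 ± 0.09 (adjusted p = 0.0201). The Hsp90b1 call was also lost with median scaling and with slide or position as a block (limma adjusted p up to 0.290). The Bag1 call was lost with median scaling, position as a block and the series table (limma adjusted p up to 0.633). Of 42 other heat shock and chaperone genes, 0 were called between ko and wt. Of all features 0.162% were called there after saline, 0.145% after OVA and 0.269% over both agents. At an unadjusted p under 0.05 there were 2 of the 42 after saline (4.76%, against 6.3%) and 2 after OVA (4.76%, against 5.08%). With OVA in wt 1 of the 42 rose and 0 fell (2.38%, against 2.61% of all features). In ko 1 rose and 1 fell (4.76%, against 0.749%), and over both genotypes 3 rose and 2 fell (11.9%, against 6.46%). Those that fell were Hspb2, a small heat shock protein of muscle (-1.94 ± 0.39 in ko, adjusted p = 0.0311, lost without any of 7 single arrays, and at -3.32 to -2.32 in ko_OVA, against -1.40 to -0.32 in ko_saline, and -1.35 ± 0.27 over both genotypes, adjusted p = 0.00972, lost in 0 of 16 fits with 1 array left out), and Cryab, another one common in muscle (-0.94 ± 0.25 over both genotypes, adjusted p = 0.0412, lost without any of 13 single arrays), which is named here after its value was seen. All 16 striated muscle genes also had lower values with OVA in ko. Their sums overlapped, at 8.79 to 20.6 in ko_OVA, against 15.01 to 557 in ko_saline. Of 13 fibroblast and smooth muscle genes 12 had lower values there. Their sums did not overlap, at 30.8 to 37.9 in ko_OVA, against 44.9 to 70.2 in ko_saline. The part of these cells in Hspb2 and Cryab was not tested.

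Of the 61 other immediate early genes measured, 0 were called by limma with OVA in wt, with OVA in ko, between ko and wt after either agent or over both, or in the interaction. At an unadjusted p under 0.05 there were 10 with OVA in wt (16.4%, against 16.5% of all features), 4 in ko (6.56%, against 9.73%), 3 between ko and wt after saline (4.92%, against 6.3%), 4 after OVA (6.56%, against 5.08%), 4 over both agents (6.56%, against 7.77%) and 5 in the interaction (8.2%, against 3.06%). Over both genotypes 1 rose and 1 fell with OVA (3.28%, against 6.46% of all features). Ppp1r15a (GADD34), which restores translation after stress, rose by 0.36 ± 0.08 (limma adjusted p = 0.0181), and Id1, an inhibitor of helix-loop-helix factors, fell by 0.81 with an SE of 0.23 (adjusted p = 0.0484), a call that was lost without any of 14 single arrays (adjusted p up to 0.102). The Ppp1r15a call was lost with median scaling and with slide as a block, among other settings (limma adjusted p up to 0.684). With OVA in wt the smallest adjusted p were 0.0638 for Ppp1r15a (0.43 ± 0.11) and 0.0852 for Nr4a2, an orphan nuclear receptor (-0.68 ± 0.20). In ko they were 0.400 for Ppp1r15a (0.29 ± 0.11) and 0.403 for Fosl2, a Fos relative (0.45 ± 0.18). Between ko and wt Ier5l stood at -0.82 ± 0.22 and Csrnp1 at -0.89 ± 0.36 after saline (adjusted p = 0.398 and 0.724), and Btg2 at 0.48 ± 0.13 and Rgs2 at 0.66 ± 0.19 after OVA (adjusted p = 0.482 and 0.556). The median change of this list was -0.22 with OVA in wt and 0.03 in ko, and -0.11 and 0.07 between ko and wt after saline and after OVA. Of the 24 measured upstream regulators 0 were called in any of the 7 comparisons, with the smallest limma adjusted p at 0.160 and at most 2 genes at an unadjusted p under 0.05. The share called among all features ran from 0% (interaction) to 6.46% (OVA over both genotypes). The 2 genes (8.33%) were those between ko and wt over both agents, against 7.77% of all features.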

How the data were processed

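Airway epithelium of 4 groups of 4 samples was hybridized to one-colour Agilent arrays (0.5 ug RNA, Cy3, per the labels' protocols). The scanner files hold background-subtracted processed signal in intensity units, as deposited, with flags per spot, per the file headers. The submitters' processing notes name Feature Extraction 10.1, whereas the version per the file headers is 10.5.1.1. The deposited series table holds log2 values that ranked probes as the median spot intensity does, with medians between 5.90 and 5.94 per array; its exact scaling and centring are not given in the sources used here. It served as an alternative.

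Control spots and outlier-flagged spots were left out and repeated spots averaged. Each array was scaled by the 75th percentile of its processed signals, held at a common floor of -3.32 (log2), and log2 transformed. A probe was kept where 4 or more of the 16 arrays had it well above background (25615 of 41174), and each gene was represented by its brightest probe (18566 features). RefSeq accessions gave symbols to 24844 probes. The other probes of Hspa1a, Hspa1b and Junb were also read.

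All 16 arrays were fitted in limma 3.58.1 (R 4.3.3), with Benjamini-Hochberg adjustment at 0.05 over all features, after a check on simulated data. The members and gene lists were chosen with earlier results of these data known. Named genes are all members, then from each list of related genes those called (at most 4 by p) or else the 2 of smallest p, and the 5 genes most like Fos and Hspa1a. The number of arrays limits the precision. Alternatives were other background corrections, scalings, filters, probe rules, floors, slide, position and replicate blocks, array weights, the series table, and leaving out each array. Pairing of the samples by replicate number was not shown, and the main fit did not use it.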

Additional observations from a re-analysis of the deposited data

Results flagged for a closer look

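In groups of 4, an array was looked at again when its gap to the nearest other array exceeded Dixon's 95% limit for the range of the group. Chance gives about 1 in 20. Of 35 groups with 4 measured arrays off the floor, 5 met this. The 4 Fosb groups had arrays at the floor, where any single value off it meets the limit by construction, so the 3 Fosb values below are no count against chance. The array wt_saline 1 stood high for Fosb (-1.02, with the other 3 at the floor), for Junb (6.27, others 5.40 to 5.48) and for Egr1 (4.23, others -0.56 to 0.15). The array ko_saline 3 stood high for Fosb (-3.05, with the other 3 at the floor), for Atf3 (0.11, others -1.27 to -1.13) and for Hspa1a (6.18, others 3.74 to 4.02). Fosb on ko_OVA 4 stood at -3.14, with the other 3 at the floor, but the spot was not well above background, on the array with the lowest 75th percentile. Egr1 stood low on wt_OVA 2 (-1.65, others -0.72 to -0.54). The Fosb gaps on ko_saline 3 and ko_OVA 4 are a small step above the floor. The cause of these single-array values was not tested.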

How the results depend on the processing

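The count of called members was 0 in all 7 comparisons under every alternative run, except that weighting arrays by their quality called 1 member, Junb, with OVA in wt (log2 change -0.76, limma adjusted p = 0.045, against up to 0.467 under the other alternatives). Leaving out each array in turn gave 0 to 0 called members in every comparison. Of 950 changes of single members under the other alternatives, 40 turned sign, as did 63 of 1260 with arrays left out, all without a call on either side. Scaling by the median in place of the 75th percentile moved the median of all features by -0.25 with OVA in wt and by 0.32 between ko and wt after OVA, so the member changes there, such as Ier3 at -0.37 and 0.48, are to be read against those shifts. Among all features, the number called with OVA in wt, 485 in the reported fit (289 higher and 196 lower), was 100 with median scaling (39 higher and 61 lower), 94 with array position as a block, 235 from only the arrays compared, 1451 with array weights, and 235 to 543 with 1 array left out. With OVA in ko it was 139, against 35 with median scaling, 7 from only the arrays compared, 354 with array weights and 69 to 168 with 1 array left out. Over both genotypes it was 1200 (691 higher and 509 lower), against 379 with median scaling (117 and 262), 525 with position, 747 with slide as a block, 2489 with array weights and 762 to 1229 with 1 array left out. Between ko and wt after saline it was 30, against 15 with position, 125 with array weights, 55 with the series table and 25 to 47 with 1 array left out. After OVA it was 27 (19 higher and 8 lower), against 29 with median scaling (24 and 5) and 7 from only the arrays compared. Over both agents it was 50 (38 and 12), against 79 with median scaling (71 and 8), 76 with normexp, 85 with the series table, 27 with position and 210 with array weights. The interaction had 0 called, against 1 with slide as a block, 1 with array weights and 0 to 3 with 1 array left out. With the replicate number as a block 0 members were called and 370 and 103 features with OVA in wt and ko. Same-numbered samples of different groups deviated together in 10 of 24 pairs (r over 0.1, range -0.37 to 0.43). In 7 of 24 searches of another group for the best match to 1 sample the match had the same number. With 4 samples per group these counts do not show pairing by number and cannot exclude it. Leaving out wt_OVA 1 and wt_OVA 2, or these with ko_OVA 4, was chosen after seeing the data and called 0 members (161 and 176 features with OVA in wt). Of the list genes named as called, Cryab and Id1 lost their calls under the replicate block (adjusted p 0.0730 for Id1). Median scaling lost the calls of Hspa5, Hsp90b1, Bag1 and Ppp1r15a over both genotypes. The spread of Egr1, Hspa1a and Hspa1b limits what could be detected for them, and signal near background limits Fosb.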
